A study of Zea mays with 36 samples.

Results

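Embryos of a maize line with high oil content were compared with embryos of a line with low oil content at 35 days after pollination. The deposited table gives the RPKM value of each feature, the reads assigned to it scaled to the length of the feature and to the total of the library. A feature belonged to the comparison when it reached at least 1 RPKM in at least 3 of the 6 libraries at 35 days, and 22396 of the 63340 features of the table did. The high-oil group had 3 libraries and the low-oil group had 3 libraries, and the series followed both lines at 6 stages (15, 20, 25, 30, 35 and 40 days) in 36 libraries. Each oil level was represented by 1 line, named in the labels by its oil content alone, so oil content and any other genetic difference between the lines cannot be told apart. Per the labels' protocols, all seeds were left in water overnight before the embryo was taken from the endosperm, and polyadenylated RNA was sequenced as paired ends. Whether the replicates of a group were separate plants or ears is not given in the labels, so p-values cover the spread among these libraries, part of which may be technical.

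The maize embryo stores oil as triacylglycerol in oil bodies, mostly in the scutellum, while the endosperm stores mostly starch. Late in seed filling the embryo builds up storage proteins, oil and protective proteins before it dries and becomes dormant. The annotated gene IDs of the table could not be paired with gene names: of its 44146 annotated IDs, 0 had a match among the 49888 genes of the RefSeq table, made for the assembly NAM-5.0. The genes are therefore given by ID and without a role, and the label embryo could not be checked against named embryo or endosperm genes. The features that carry a name are the microRNA precursors, described below.

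The high-oil libraries had 59060873, 53142750 and 66592028 reads assigned to features, and the low-oil libraries 58206671, 54101280 and 51336416. For a feature of 1000 bases, 1 RPKM therefore stood for 51.3 to 66.6 reads. The high-oil replicates resembled each other less than the low-oil replicates did. Their mean correlation across features with the other libraries of their own group was 0.936, 0.925 and 0.942, against 0.962, 0.960 and 0.959 in the low-oil line. On the log2 scale a feature's median SD was 0.298 among high-oil and 0.232 among low-oil libraries. High-oil replicate 2 stood farthest from its group. It lay at least 1 log2 unit above both other high-oil libraries for 438 features and below both for 760, and it correlated best with a high-oil library of 40 days (0.954). High-oil replicate 1 correlated best with a high-oil library of 30 days, and low-oil replicates 1 and 2 with a low-oil library of 40 days.

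At 35 days the high-oil line had 718 features that were higher and 1343 that were lower (limma on log2(RPKM + 1), Benjamini-Hochberg adjusted p below 0.05 and a difference of at least 1 log2 unit). These are 3.21% and 6.00% of the features tested, and 9.20% in both directions together. Libraries of whole embryos do not tell fewer cells of a type apart from less RNA per cell. The median difference of the higher features was 1.81 log2 units and that of the lower features was -1.54. At least 3 log2 units separated the lines for 118 higher and 113 lower features, and at least 4 for 39 and 39. Of the 718 higher features, 689 (96.0%) had all 3 high-oil libraries above all 3 low-oil libraries, and of the 1343 lower features, 1275 (94.9%) had all 3 below. Among all tested features such a separation was found for 7.38% with the high-oil line higher and for 19.0% with it lower. The called features were shorter and less abundant than the tested features as a whole. Their median length was 1005 bases for the higher and 1197 for the lower ones, against 1556 for all, and their median level was 3.38 and 6.23 RPKM, against 7.33.

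The split between higher and lower features depended on how the libraries were scaled. The median difference over all tested features was -0.14 log2 units with RPKM, so a feature at that median already lay lower in the high-oil line. With median-of-ratios scaling the median was -0.01, and 865 features were higher and 1092 lower. With quantile normalization it was 0.02, and 1012 were higher and 1156 lower. Higher features thus made up 34.8% of the calls with RPKM and 46.7% with quantile normalization. Of the 2061 calls, 1807 were made in the same direction with median-of-ratios scaling and 1847 with quantile normalization, and 0 features were called in opposite directions.

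**Figure D1:**
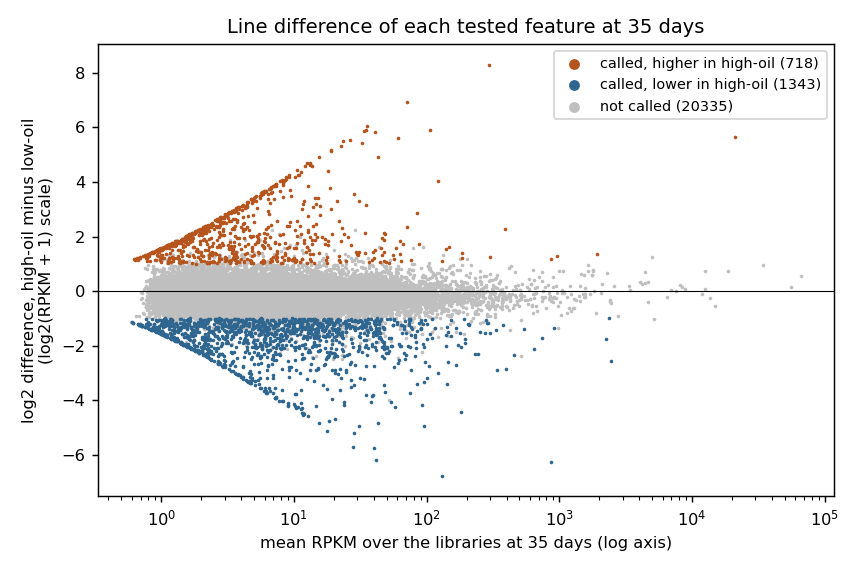
The difference between the lines at 35 days (y axis, log2 units, positive where the high-oil line is higher) is plotted against the mean RPKM of the 6 libraries (x axis, log scale) for each of the 22396 tested features, which are the points. The edges of the cloud at low levels are where 1 line is near 0, and Zm00001d033447, at the right, stands far above the other abundant features.

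The largest rise was that of the annotated gene Zm00001d051803, which had 391, 675 and 716 RPKM in the high-oil embryos, against 0.0861, 1.90 and 0.928 RPKM in the low-oil embryos. All high-oil libraries lay more than 100-fold above the highest low-oil library (log2 8.30, SE 1.57, adjusted p 0.000275, limma). Its adjusted p was 0.118 with limma-voom on the reads recovered from the values, and its standard error takes in the differences among its high-oil replicates at other stages, described below. Zm00001d025423 had 162, 126 and 140 RPKM in the high-oil embryos, against 0.305, 0.131 and 0.0691 RPKM in the low-oil embryos, from 7207 and 8 reads in all. The 3 libraries of each line were close to each other, and the high-oil mean was 847-fold the low-oil mean (log2 6.94, SE 0.16, adjusted p 8.11e-23, limma). Between 15 and 40 days the difference stayed between 6.92 and 7.27 log2 units at each of the 6 stages.

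Among the lower features the greatest difference was that of Novel04116, a feature of 415 bases that has a running number and no annotation ID. It had 1.22, 0.771 and 2.53 RPKM in the high-oil embryos, against 218, 273 and 292 RPKM in the low-oil embryos. The groups lay far apart (log2 -6.76, SE 0.28, adjusted p 1.94e-17, limma). Its means in high-oil embryos stayed between 0.462 and 1.51 RPKM at all 6 stages, while in low-oil embryos it averaged 9.23 RPKM at 15 days, 56.8 at 20 days and 233 at 25 days. The line difference accordingly was -2.78 log2 units at 15 days and -7.33 at 40 days. Zm00001d035560 had 3.70, 2.59 and 499.9 RPKM in the high-oil embryos, against 1685, 1599 and 1419 RPKM in the low-oil embryos. The groups did not overlap, but 1 high-oil library lay more than 100-fold above the other 2 (log2 -6.26, SE 1.64, adjusted p 0.00759, limma). The call was lost without high-oil replicate 1 (adjusted p 0.0585), without high-oil replicate 2 (adjusted p 0.0583) and in a fit of the 6 libraries alone (adjusted p 0.0508).

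**Figure D2:**
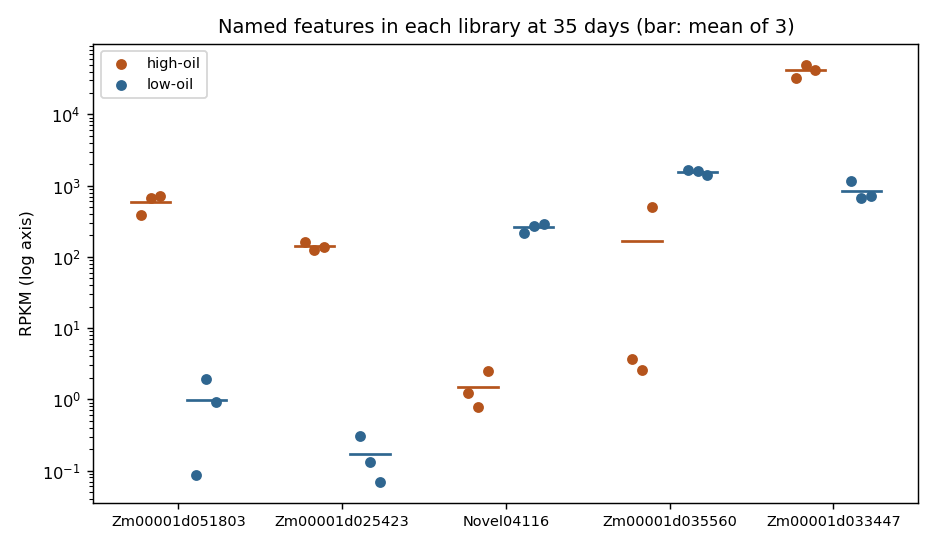
RPKM (y axis, log scale) of 5 named features in each of the 3 high-oil and 3 low-oil libraries at 35 days; points are libraries and bars are group means. The high-oil points of Zm00001d035560 fall into 2 low values and 1 of 499.9 RPKM, while the points of the other features stay closer together within a line.

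The abundant transcripts held 1 large difference. Zm00001d033447 was the only one of the 20 features with the highest mean at 35 days that was called. It had 32557, 49724 and 42505 RPKM in the high-oil embryos, against 1148, 662 and 720 RPKM in the low-oil embryos. The high-oil mean was 49.3-fold the low-oil mean (log2 5.64, SE 0.33, adjusted p 5.19e-14, limma). This gene alone took 4.63%, 7.08% and 6.05% of the reads of the high-oil libraries, against 0.163%, 0.0943% and 0.102% of those of the low-oil libraries. The difference was 3.70 log2 units at 15 days and lay between 5.43 and 6.43 at the later stages. Of the 20 features, 14 had a difference above 0, and the libraries of the lines did not overlap for 4 that were higher and 3 that were lower in the high-oil line. Of all tested features, 34.4% had a difference above 0 with RPKM, 49.1% with median-of-ratios scaling and 52.5% with quantile normalization. With RPKM, 7.38% and 19.0% of all did not overlap in these directions. The top 10 features of each library by RPKM took 24.9%, 31.8% and 24.8% of the reads in the high-oil line, against 15.9%, 16.0% and 23.0% in the low-oil line. The means were 27.2% ± 4.03 and 18.3% ± 4.03 (SD, n = 3 each), a difference of 8.86 percentage points. The exact permutation test gave p = 0.1 (two-sided), which is the smallest p that 3 against 3 libraries allow. Zm00001d033447 was among the top 10 of each high-oil library, with the 4.63% to 7.08% of the reads given above. Much of the 8.86 points is therefore the difference of this 1 gene already described. The share without it was not computed, so a more general concentration of reads in the high-oil line is not shown.

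Some genes were switched between a high and a very low level among replicates of the high-oil line. For 46 features of the whole table the 3 high-oil libraries at 35 days spanned at least 4 log2 units on the log2(RPKM + 1) scale, against 12 features for the low-oil libraries. Of these, 30 and 12 were among the tested features. The high-oil library that lay apart from the other 2 was replicate 1 for 18 of the 30, replicate 2 for 7 and replicate 3 for 5. Over the 6 stages, 14 features spanned at least 4 log2 units among the high-oil replicates at 3 or more stages, and 0 did so among the low-oil replicates. At 2 or more stages 32 features did so among the high-oil and 14 among the low-oil replicates. At single stages such spans were not always more frequent in the high-oil line. At 15 and 20 days they were found for 27 and 12 features among high-oil libraries, against 6 and 7 among low-oil libraries. At 25 and 40 days the counts were 7 and 33 among high-oil libraries, against 23 and 54 among low-oil libraries, and at 30 days each line had 26. Among the 14 features with such spans at 3 or more stages of the high-oil line, 10 were tested at 35 days. Of these, 2 were called higher and 3 lower, against 3.21% and 6.00% of all tested features.

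Zm00001d051803 and Zm00001d035560, the highest and the second lowest named features, were both among these 14. At 30 days Zm00001d051803 had 243, 0.533 and 336 RPKM in the high-oil embryos, against 0.192, 0.182 and 0.606 RPKM in the low-oil embryos. At 20 days it had 404, 1.32 and 0.791 RPKM in the high-oil embryos, so that 2 of the 3 libraries lay at the level of the low-oil line. At 25, 35 and 40 days all high-oil libraries were at the high level. Zm00001d035560 also varied widely among high-oil replicates, but it was high in the low-oil line. At 30 days it had 694, 5.86 and 1731 RPKM in the high-oil embryos, against 1945, 1859 and 1967 RPKM in the low-oil embryos. Its high-oil values were not confined to 2 levels, with 144, 77.0 and 9.55 RPKM at 25 days. Over all stages it lay between 864 and 2247 RPKM in the 18 low-oil libraries. These features were singled out after their values were seen.

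**Figure D3:**
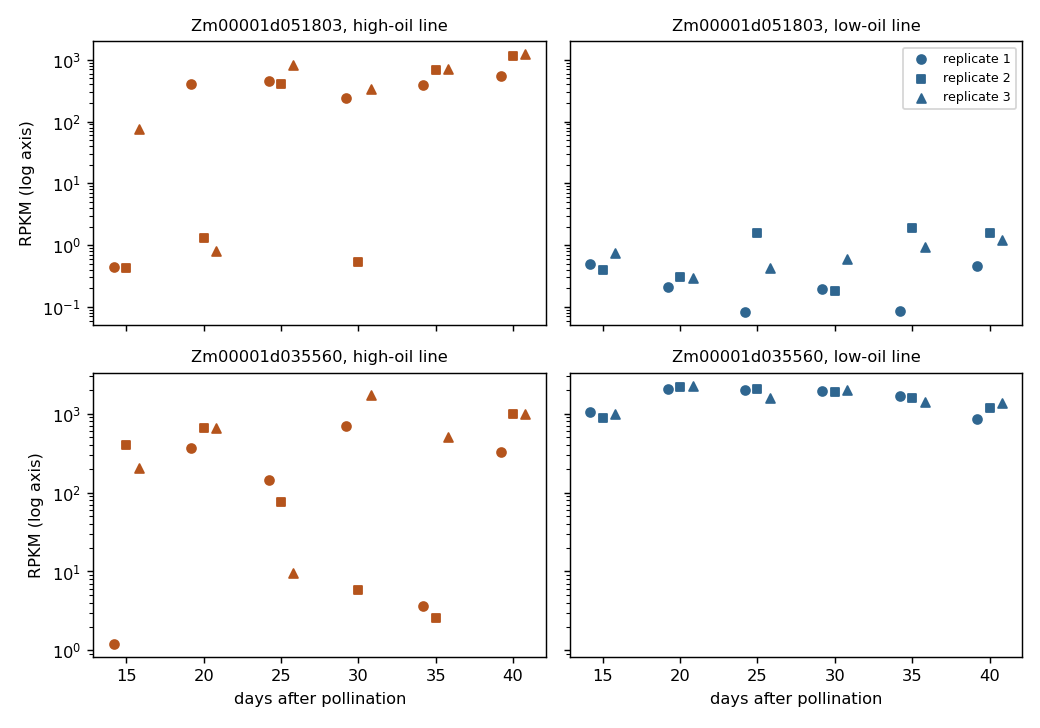
RPKM (y axis, log scale) of Zm00001d051803 (top) and Zm00001d035560 (bottom) in each replicate against days after pollination (x axis), with the high-oil line on the left and the low-oil line on the right; point shapes are replicate numbers, which do not link stages. At some stages the high-oil points lie far apart, and the low-oil points stay in 1 band.

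The calls fell unevenly on the classes of features. Of the 20163 annotated gene IDs tested, 425 (2.11%) were higher in the high-oil embryos and 1108 (5.50%) were lower. The 2031 running numbers held 274 (13.5%) that were higher and 226 (11.1%) that were lower. Of the 194 ENSRNA noncoding RNA features, 17 (8.76%) were higher and 9 (4.64%) lower. The running numbers were mostly of low level, but they were called more often than the annotated genes of the same level too. Between 0 and 3 RPKM 26.0% of them were called, against 10.4% of the annotated genes, and between 3 and 10 RPKM 24.6%, against 6.62%. Lower calls outnumbered higher calls among the annotated genes with RPKM, with median-of-ratios scaling (548 higher and 864 lower) and with quantile normalization (658 and 930). Among the running numbers the higher calls were more numerous with all 3 scalings (298 and 219, and 333 and 218, with the other scalings). The features are not independent of each other, and the shares are given without a test. Whether reads of a line that differs from the reference genome were aligned less often was not tested.

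**Figure D4:**
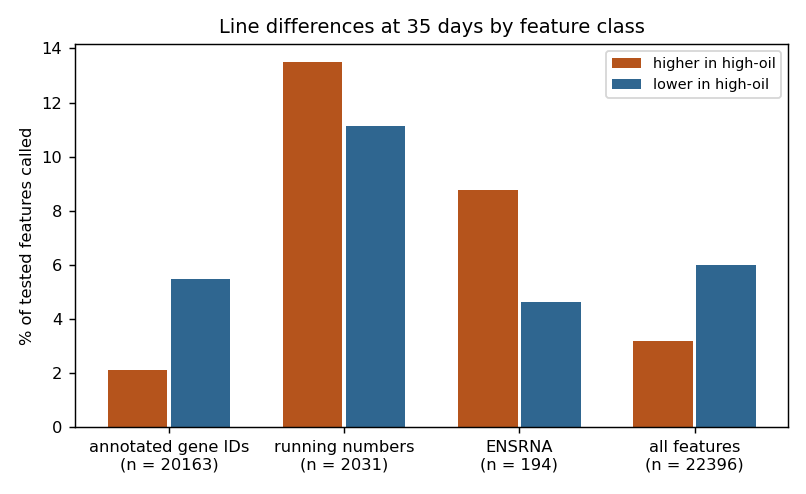
Share of the tested features of each class (y axis, %) that was called higher (left bar) or lower (right bar) in the high-oil line at 35 days; n is the number of features tested, and the bars are shares of features without an error. Running numbers have the highest bars (13.5% and 11.1%), and annotated gene IDs are the only class shown, apart from all features together, with more lower than higher calls.

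Some features had reads at 35 days in 1 line alone. At 35 days 106 features reached at least 1 RPKM in each high-oil library and had 0 reads in all 3 low-oil libraries. They were 80 running numbers, 25 annotated gene IDs and 1 ENSRNA feature, with a median of 2.62 RPKM and a highest mean of 21.2 RPKM in the high-oil line. Of the 106, 21 had 0 reads in all 18 low-oil libraries of the series. In the other direction 100 features had 0 reads in the high-oil libraries and at least 1 RPKM in each low-oil library, of which 63 were running numbers, 32 annotated gene IDs and 5 ENSRNA features. A sum of 0 reads over a group allows up to 3 reads, and this limit covers counting error only.

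MicroRNA precursors are longer transcripts from which a short mature microRNA is cut, and the mature microRNA then guides the silencing of matching transcripts. The values below are those of polyadenylated precursors and not of mature microRNAs. The table lists 154 precursors. Of these, 8 were tested, 2 of them were called higher in the high-oil embryos and 0 lower, against 3.21% and 6.00% of all tested features. MIR408b, of a family that targets transcripts of copper proteins such as laccases and plantacyanins, had 32.3, 1.41 and 18.9 RPKM in the high-oil embryos, against 2.45, 0.503 and 0.530 RPKM in the low-oil embryos. High-oil replicate 2 lay within the low-oil range, so the groups overlapped (log2 2.55, SE 0.73, adjusted p 0.0144, limma). MIR408b was also called higher in the high-oil line at 15 days (log2 3.88, adjusted p 0.000316, limma) and at 40 days (log2 2.45, adjusted p 0.0246, limma). It was not called at 20, 25 and 30 days (adjusted p 0.103, 0.675 and 0.0827, limma). MIR168b, of a family that targets transcripts of ARGONAUTE1, a protein through which microRNAs act, had 9.93, 27.9 and 10.5 RPKM in the high-oil embryos, against 4.96, 1.78 and 7.12 RPKM in the low-oil embryos. The groups did not overlap, though the nearest libraries were 9.93 and 7.12 RPKM (log2 1.59, SE 0.46, adjusted p 0.0155, limma). MIR168b was called at no other stage, and at 20 days its difference was -0.71 log2 units (adjusted p 0.430, limma).

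Both calls were lost without single libraries. MIR168b was not called without high-oil replicate 2 (adjusted p 0.122) or low-oil replicate 2 (adjusted p 0.135). MIR408b was not called without high-oil replicate 1 (adjusted p 0.133) or 3 (adjusted p 0.0696), or without low-oil replicate 2 (adjusted p 0.0632) or 3 (adjusted p 0.0524). The other precursor of that family, MIR168a, had 24.6, 15.4 and 27.9 RPKM in the high-oil embryos, against 31.7, 25.9 and 23.6 RPKM in the low-oil embryos, and the groups overlapped (log2 -0.28, SE 0.52, adjusted p 0.778, limma). MIR2118c belongs to a family known for setting off phased small RNAs. It had 9.68, 4.24 and 2.15 RPKM in the high-oil embryos, against 5.43, 3.61 and 3.95 RPKM in the low-oil embryos (log2 0.09, SE 0.40, adjusted p 0.915, limma). The other 4 were near the limit of the test. MIR156h (targets SPL transcription factors) averaged 1.10 RPKM in high-oil embryos and 1.01 in low-oil embryos, and MIR159a (targets MYB factors of the GAMYB type) 1.03 and 0.767. MIR166a (targets HD-ZIP III factors) averaged 1.05 RPKM in high-oil embryos and 1.79 in low-oil embryos, and MIR319d (targets TCP factors) 1.21 and 0.868. None of these 4 was called, and from 19 to 61 reads lay behind each group.

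The features called at 35 days were followed through the other stages. The libraries of those stages do not enter the difference at 35 days, but in the fit of all 36 libraries they enter the estimate of its spread. The features that were higher at 35 days had a median line difference of 1.25 log2 units at 15 days, 1.33 at 20, 1.38 at 25, 1.56 at 30 and 1.77 at 40 days. Those that were lower had medians of -0.35, -0.55, -0.71, -1.0 and -1.19 at the same stages. With RPKM the lower features thus had small differences in young embryos and larger ones in old embryos, and the higher features already differed at 15 days. The medians at 35 days itself, 1.81 and -1.54, are raised by the choice. In an alternative added after the data were seen, features were called from the 6 libraries of 35 days alone and followed in a fit of the other 30 libraries alone. There the 653 higher features had medians of 1.41 log2 units at 15 days and 1.84 at 40 days, and the 1137 lower features had -0.45 and -1.27. The medians of the higher features at 15 days depended on scaling. With median-of-ratios scaling they were 0.95 at 15 days and 1.64 at 40 days, and those of the lower features -0.45 and -1.31. With quantile normalization the higher features had 0.78 and 1.43, and the lower features -0.43 and -1.27. Of the 718 higher features, 393 were called higher at 15 days too, against 2.59% of all tested features. The count was 415 at 20 days (3.01% of all), 450 at 25 days (3.07%), 506 at 30 days (2.90%) and 561 at 40 days (3.17%). Of the 1343 lower features, 383 were called lower at 15 days, against 2.49% of all tested features. Here the count was 441 at 20 days (3.17% of all), 528 at 25 days (4.15%), 600 at 30 days (3.64%) and 685 at 40 days (3.78%).

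At all 6 stages 298 of the higher features (41.5%) and 287 of the lower features (21.4%) were called in the same direction. For 75 (10.4%) of the higher and 441 (32.8%) of the lower features, 35 days was the only stage with a call in either direction. A call at 1 stage and not at another is no test of a difference between them. The line difference at 35 days was also tested against its mean at the other 5 stages. There 8 of the 75 and 73 of the 441 differed in the direction of their call at 35 days, against 0.246% and 0.772% of all tested features. These features were chosen for calls that favour this contrast, so nothing is read from their shares. Among the running numbers 129 of 274 higher (47.1%) and 101 of 226 lower (44.7%) were called at all 6 stages, against 163 of 425 (38.4%) and 185 of 1108 (16.7%) annotated genes.

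**Figure D5:**
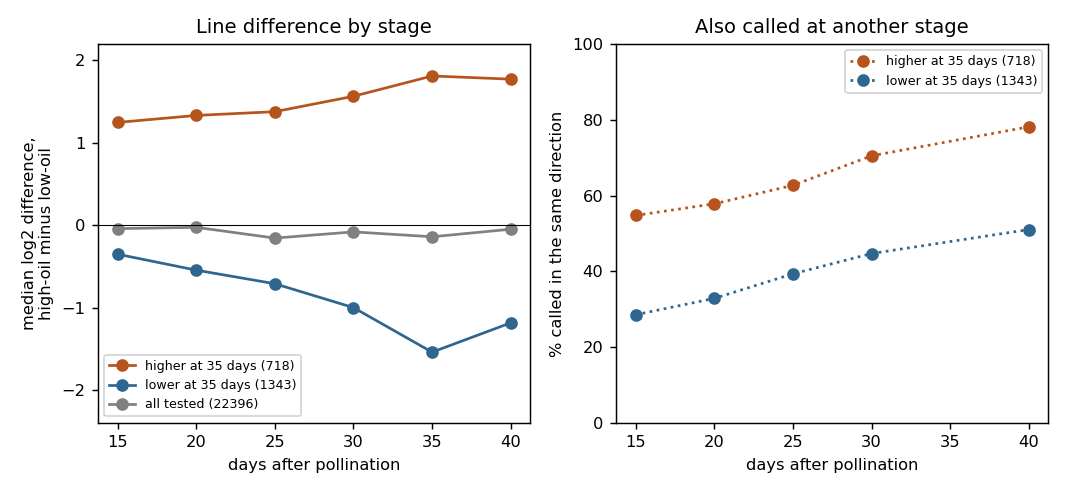
Left, the median line difference (y axis, log2 units, high-oil minus low-oil) of the 718 features higher and the 1343 features lower at 35 days, and of all 22396 tested features, against days after pollination. Right, the percentage of the 718 and of the 1343 features that was called in the same direction at each other stage, which is higher at 40 days than at 15 days for both.

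The change of the 2 sets with age was first read between 30 and 40 days. The difference between the lines in this change was not tested. In the low-oil line 193 of the 1343 lower features (14.4%) rose from 30 to 40 days and 31 (2.31%) fell, against 2.68% and 3.42% of all tested features. Among high-oil embryos 140 of them (10.4%) rose and 44 (3.28%) fell, against 3.97% and 3.74% of all. The set lower at 35 days thus held a larger share of late-rising features than the table as a whole in both lines. Over the same days, 54 of the 718 higher features (7.52%) rose and 48 (6.69%) fell in high-oil embryos, both shares also above those of all features. In low-oil embryos 9 of them (1.25%) rose and 51 (7.10%) fell. Between 15 and 30 days 145 of the higher features (20.2%) rose in high-oil embryos, against 7.39% of all, and 298 of the lower features (22.2%) rose in low-oil embryos, against 8.88% of all. Falls over these days were made by 64 of the higher features (8.91%) in high-oil embryos and by 159 of the lower features (11.8%) in low-oil embryos, against 17.4% and 18.2% of all. In the line where each set was low, 130 of the lower features (9.68%) rose and 234 (17.4%) fell in high-oil embryos, and 49 of the higher features (6.82%) rose and 72 (10.03%) fell in low-oil embryos. With median-of-ratios scaling the lower features that rose from 30 to 40 days in the low-oil line were 147 (13.5%), against 2.71% of all, and without high-oil replicate 2 they were 200 (14.2%), against 2.79%. With calls from the 6 libraries of 35 days alone and the change from the other 30 alone they were 148 of 1137 (13.0%), against 2.69%. The falls between 15 and 30 days depended more on scaling. With median-of-ratios scaling 5.55% of the higher features fell in high-oil embryos, against 8.35% of all. In low-oil embryos 6.14% of the lower features fell with this scaling, against 9.18% of all.

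A test of the line difference at 35 days against its mean at the other 5 stages asked which differences belonged to this age. It called 55 features (0.246%) whose difference, high-oil minus low-oil, was shifted upward and 173 (0.772%) whose difference was shifted downward, 1.02% in all. Either line can make such a shift. From 15 to 35 days the median log2 level of the 173 went from 2.21 to 4.12 in low-oil embryos. In high-oil embryos it went from 3.05 to 2.46. For the 55 it went from 2.86 to 1.59 in low-oil embryos and from 1.92 to 3.34 in high-oil embryos. Of the 55, 40 were also called higher at 35 days, and of the 173, 150 were called lower. The median line difference of the 173 was 0.30 log2 units at 15 days, 0.33 at 20, 0.21 at 25, -0.40 at 30, -1.56 at 35 and -0.87 at 40 days. The median of the 55 was -0.17, -0.23, -0.14, 0.51, 1.67 and 1.13 at the same stages. Both sets therefore changed sign between 25 and 30 days and kept the new sign at 40 days, which describes features that this contrast chose. With 1 library left out the number called ran from 89 (without low-oil replicate 2) to 382 (without low-oil 25-day replicate 3). It was 368 without high-oil replicate 2, 123 without high-oil replicate 1, 129 without high-oil replicate 3 and 124 without low-oil replicate 3.

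Zm00001d013937 crossed over between the lines. At 15 days it averaged 43.3 ± 11.1 RPKM in the high-oil embryos and 2.55 ± 1.16 in the low-oil embryos (SD, n = 3 each). At 35 days it had 5.27, 1.79 and 5.81 RPKM in the high-oil embryos, against 25.4, 23.4 and 17.8 RPKM in the low-oil embryos. The groups did not overlap at either age and stood in opposite order. The difference at 35 days was -2.22 log2 units, and it departed from the mean of the other stages by -2.81 log2 units (SE 0.41, adjusted p 0.000811, limma). Zm00001d010814 crossed in the other direction. It averaged 3.49 ± 0.901 RPKM in the high-oil embryos and 49.3 ± 14.2 in the low-oil embryos at 20 days (SD, n = 3 each). At 35 days it had 5.08, 23.4 and 48.4 RPKM in the high-oil embryos, against 2.97, 4.12 and 4.95 RPKM in the low-oil embryos. The lowest high-oil library was close to the highest low-oil library, and the contrast with the other stages was 3.32 log2 units (SE 0.54, adjusted p 0.00231, limma).

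Zm00001d009112 separated up to 35 days without crossing. It averaged 0.789 ± 0.589 RPKM in the high-oil line at 15 days, when the low-oil libraries had 0 reads. At 35 days it had 47.0, 90.7 and 65.1 RPKM in the high-oil embryos, against 0, 0.176 and 0.216 RPKM in the low-oil embryos, from 7530 and 13 reads. At 20, 25, 30 and 40 days the highest low-oil library had 2.80, 6.64, 4.58 and 16.1 RPKM, and these libraries enter the contrast. The line difference was 5.88 log2 units at 35 days and 4.76 at 40 days. The contrast with the other stages was 3.32 log2 units (SE 0.80, adjusted p 0.0323, limma), and it was lost without any one of the 6 libraries of 35 days. Zm00001d043136 had 1.65, 7.09 and 4.04 RPKM in the high-oil embryos, against 28.0, 24.2 and 37.9 RPKM in the low-oil embryos. The lines did not overlap, and before 30 days their differences of 0.35, 0.68 and 0.52 log2 units were not called. Its contrast was -2.49 log2 units (SE 0.63, adjusted p 0.042, limma), and it was lost under 20 of 45 alternatives, the replicate block (adjusted p 0.0502) and 15 single libraries left out among them.

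Finally, the developmental state of the libraries was summarised by a score, the mean log2 value of 2098 features that rose minus that of 4648 features that fell between 15 and 40 days in both lines. The features were chosen from the 30 libraries of the other 5 stages. The score was 1.02, 1.35 and 1.03 in the high-oil embryos, against 1.504, 1.20 and 1.34 in the low-oil embryos. The groups overlapped, and the means of 1.13 ± 0.188 and 1.35 ± 0.151 (SD, n = 3 each) differed by -0.216 (exact permutation test, p = 0.3, two-sided). For scale, the mean score at 30 days was 0.344 in high-oil and 0.723 in low-oil embryos, and the groups did not overlap. At 40 days the means were 1.68 and 1.79. The libraries of these 2 stages entered the choice of the features, and their line differences in score were not tested. High-oil replicate 2, the library that stood farthest from its group, had the highest score of the high-oil line. Its departure from the group ran with that of high-oil 40-day replicate 1 across features (r = 0.53, over 22396 features, which are not independent). That library is the one with which it correlated best, as given above. No other pair is set beside it, so nothing further is read from this r. The part of stage in the line differences was not tested further.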

How the data were processed

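The authors deposited 1 table of RPKM values with a column for each of the 36 libraries, and 0 columns were left unused. FastQC, TopHat2, Cufflinks and the build B73 RefGen_v4 are named, without roles, per the submitters' processing notes. Strandedness of the counting, and the release of the annotation, are not given in these sources. The values were whole multiples of 1 read: 100.0% of the 51853 features above 0 gave whole reads within 0.0001, and the recovered reads summed to the library totals within 1217 reads.

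The main test was limma 3.58.1 (R 4.3.3) on log2(RPKM + 1), a pseudocount of 1, with 12 group means over the 36 libraries, a mean-variance trend and Benjamini-Hochberg adjustment over the 22396 tested features. Folds on this scale understate the change of low features. Groups, stages and replicates were taken from the labels. The score and share were tested by exact permutation. The alternatives were other scalings, pseudocounts, filters and fits, limma-voom on recovered reads, a replicate block, array weights and each library left out in turn. Features were named by a rule: the 2 highest and 2 lowest non-overlapping calls of each contrast with at least 10 RPKM in the higher line, called features among the 20 most abundant and every microRNA precursor tested. Gene lists could not be applied for want of names. The members, lists and tests were chosen with earlier results of these data known. The same-numbered replicates of the lines did not deviate together (r = -0.13, -0.33 and -0.21), so the main test did not pair them. A pairing that leaves no shared deviation would not be seen this way.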

Additional observations from a re-analysis of the deposited data

Results flagged for a closer look

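The line difference at 35 days departed from its mean at the other 5 stages for 228 features (limma, a test of the difference itself). The 4 named features of that test were flagged with it. Zm00001d010814 departed by 3.32 log2 units and Zm00001d009112 by 3.32. Zm00001d013937 departed by -2.81 and Zm00001d043136 by -2.49. The call of Zm00001d013937 was kept under all 45 alternatives, and that of Zm00001d010814 under 44, with an adjusted p of 0.0581 in limma-voom on recovered reads. The call of Zm00001d009112 was lost under 9 of 45 and that of Zm00001d043136 under 20 of 45, where its adjusted p reached 0.162. Among these 20 were 15 single libraries left out: high-oil replicates 1 and 3 and low-oil replicates 1, 2 and 3 of 35 days, high-oil replicates 2 and 3 of 15 days, 2 and 3 of 20 days, 1 and 2 of 25 days and 1 of 30 days, and low-oil replicates 1 and 2 of 15 days and 1 of 25 days.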

How the results depend on the processing

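The 2061 calls at 35 days became 1129 with a minimum of 5 RPKM, which tested 14314 features, and 3545 by the adjusted p alone. Limma-voom on recovered reads called 2331 and array weights 2302. Leaving out 1 library gave 1858 to 2190. The 228 departures from the other stages became 135 with a pseudocount of 0.1, 345 by the adjusted p alone, 534 with array weights and 144 with limma-voom. Leaving out 1 library gave 89 to 382. The 89 came without low-oil replicate 2 and the 382 without low-oil 25-day replicate 3. There were 123 without high-oil replicate 1, 368 without high-oil replicate 2, 129 without high-oil replicate 3 and 124 without low-oil replicate 3. The 2 called microRNA precursors became 1 with a minimum of 5 RPKM, with array weights and with limma-voom, 0 in a fit of the 6 libraries alone, and 0 to 2 with 1 library left out. With the replicate number as a block 2050 features were called at 35 days and 182 departed from the other stages. The call of Zm00001d043136 was lost (adjusted p 0.0502), and whether the numbers pair the samples is not known. The other named features kept their calls with the block.

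Differences of precursors that were not called changed sign. MIR156h, at -0.043, had 0.037 with median-of-ratios scaling, 0.26 with quantile normalization and -0.32 to 0.43 with 1 library left out. MIR159a, at 0.14, had -0.078 with a pseudocount of 0.1, -0.26 with array weights, -0.46 with limma-voom and -0.13 to 0.59 with 1 library left out. With 1 library left out MIR2118c had -0.38 to 0.50 and MIR319d -0.083 to 0.55. The causes were not tested. The share of the 10 highest features and the stage score kept their direction under all 8 alternatives each, but no p of 3 against 3 libraries can fall below 0.1. Precursors averaging near 1 RPKM rest on few reads, which limits what can be detected.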

Other observations

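Called genes lay next to each other in the order of IDs more often than the share of calls. Of the 425 annotated genes called higher, 33 (7.76%) were followed by a tested ID that was called higher too, against 2.11% of the annotated genes tested. Of the 1108 called lower, 112 (10.1%) were followed by one called lower, against 5.50%. There were 2 runs of 4 consecutive tested IDs that were all lower in the high-oil line. These counts are given without a test.

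Among the features that spanned at least 4 log2 units between high-oil replicates at 3 or more stages, 2 running numbers stood in opposite states at 35 days. They were chosen after their values were seen. Novel08953 had 34.02, 0.0522 and 0.0750 RPKM in the high-oil embryos, and at most 0.0821 RPKM in the 18 low-oil libraries. Novel03847 had 0.103, 29.7 and 33.0 RPKM in the high-oil embryos, and between 27.3 and 44.0 RPKM in the 18 low-oil libraries. At 40 days the high-oil replicates of both again split into high and low values in opposite order: Novel08953 had 0.0215, 34.9 and 36.05 RPKM and Novel03847 29.9, 0.140 and 0.0947. At these 2 ages, the replicates that lay at the level of the low-oil line for one also did so for the other. The same held at 15 days, when Novel08953 had 0.0492, 33.7 and 21.6 RPKM and Novel03847 33.0, 0.0740 and 0.0602. At 20 days high-oil replicate 1 had intermediate values of both, 9.60 RPKM of Novel08953 and 12.2 of Novel03847. At 25 days all high-oil replicates had at most 0.0589 RPKM of Novel08953 and at least 22.5 of Novel03847. At 30 days the match failed: high-oil replicate 2 had 0 RPKM of Novel08953, as in the low-oil line, and 0.196 RPKM of Novel03847, far below the low-oil line.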
